A study of Mus musculus with 4 samples.

Results

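This account concerns the chromatin of 30 genes of cholesterol synthesis and sterol regulation in mouse forelimb buds. They were chosen by name: 17 synthesis enzymes, 7 genes of sterol sensing, 4 of intracellular transport and storage (labelled uptake and storage), and 2 of efflux. Of the 30 genes, 29 were found among the 22372 protein-coding genes of the GENCODE vM1 annotation on mm9, and Hmgcs1 was not. A region of open chromatin was assigned to a gene if the middle of the region fell no more than 2.5 kb from one of its starts (promoter-proximal) or, beyond that, if no other protein-coding gene had a nearer start (distal). This gave 69 of the 42613 accessible regions at E9.5 and 63 of the 46765 at E10.5.

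ATAC-seq, which marks open chromatin by the insertion of adapters with a transposase, was carried out on wild-type NMRI mouse embryos. At E9.5 (given as a slightly later time on the same day in the protocol) the forelimb buds were dissected with adjoining trunk, and at E10.5 the protocol names forelimb buds alone, although the tissue entry for those samples also lists hindlimb buds. Each stage was represented by 2 biological replicates, each the limb bud pair of 1 embryo, which the authors merged into 1 list of regions. Stage and trunk tissue cannot be told apart, and because no value per replicate was analysed here, no difference between the stages carries a replicate error and no test was made.

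Cholesterol is built from acetyl-CoA through mevalonate, isoprenoid diphosphates, squalene and lanosterol. When sterols in the endoplasmic reticulum run low, SCAP escorts the SREBP transcription factors out of that membrane, they are cut, and their released domain binds sterol response elements (SREs) in the promoters of the pathway, usually with the help of NF-Y and Sp factors. INSIG proteins hold SCAP back when sterols are plentiful, and oxysterols then switch on efflux genes through the liver X receptors (LXRs). In embryos, cholesterol is also attached covalently to Hedgehog proteins, which pattern the limb bud, and loss of its last synthesis enzymes causes malformations that include the limbs.

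Upstream promoter sequences are given for 7 genes to which the results below return: the pair with a match to the SRE core, the sensor with the highest score, the isomerase and the reductase that ranked highest among the enzymes at E10.5, the efflux gene with a distal landscape, and a receptor whose promoter holds none of the elements marked. They are RefSeq promoter sequences of GRCm38.p6, written 5′ to 3′ on the strand of the gene and placed on NCBIM37 (mm9) by exact match. They run from 250 bases before the RefSeq start up to the start or, for Srebf2 and Hsd17b7, to the first base of an annotated exon. Capitals mark the SRE core (TCACNCCA), CCAAT boxes bound by NF-Y (ATTGG on the other strand) and the E-box CACGTG, to which SREBPs and other basic helix-loop-helix factors can bind.
Hmgcs1: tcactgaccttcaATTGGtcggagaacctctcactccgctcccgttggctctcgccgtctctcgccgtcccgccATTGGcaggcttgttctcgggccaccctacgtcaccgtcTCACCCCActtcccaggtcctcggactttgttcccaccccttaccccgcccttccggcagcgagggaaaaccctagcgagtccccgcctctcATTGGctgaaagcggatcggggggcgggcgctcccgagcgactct
Srebf2: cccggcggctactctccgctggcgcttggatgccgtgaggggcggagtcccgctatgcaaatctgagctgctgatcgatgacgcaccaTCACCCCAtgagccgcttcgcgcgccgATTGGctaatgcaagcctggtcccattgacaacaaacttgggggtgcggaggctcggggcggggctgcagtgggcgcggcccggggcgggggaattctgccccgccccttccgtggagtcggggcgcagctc
Insig1: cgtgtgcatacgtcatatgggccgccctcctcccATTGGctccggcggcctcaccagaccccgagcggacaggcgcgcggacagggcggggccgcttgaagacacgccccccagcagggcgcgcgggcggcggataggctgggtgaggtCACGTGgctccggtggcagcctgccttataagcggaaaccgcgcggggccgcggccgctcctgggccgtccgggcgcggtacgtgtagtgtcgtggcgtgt
Idi1: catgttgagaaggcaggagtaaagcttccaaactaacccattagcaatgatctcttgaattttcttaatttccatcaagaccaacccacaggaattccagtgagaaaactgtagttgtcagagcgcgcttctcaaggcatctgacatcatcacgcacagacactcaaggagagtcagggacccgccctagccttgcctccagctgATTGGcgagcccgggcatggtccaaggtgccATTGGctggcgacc
Hsd17b7: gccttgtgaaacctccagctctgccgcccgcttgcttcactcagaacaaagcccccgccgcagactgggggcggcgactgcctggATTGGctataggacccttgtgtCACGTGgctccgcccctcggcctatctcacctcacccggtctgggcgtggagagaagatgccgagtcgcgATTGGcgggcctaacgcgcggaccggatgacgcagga
Abca1: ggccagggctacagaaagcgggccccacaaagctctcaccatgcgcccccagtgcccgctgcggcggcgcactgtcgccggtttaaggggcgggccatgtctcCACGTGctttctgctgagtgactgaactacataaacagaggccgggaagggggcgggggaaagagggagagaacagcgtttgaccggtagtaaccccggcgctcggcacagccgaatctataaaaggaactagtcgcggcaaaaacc
Nr1h2: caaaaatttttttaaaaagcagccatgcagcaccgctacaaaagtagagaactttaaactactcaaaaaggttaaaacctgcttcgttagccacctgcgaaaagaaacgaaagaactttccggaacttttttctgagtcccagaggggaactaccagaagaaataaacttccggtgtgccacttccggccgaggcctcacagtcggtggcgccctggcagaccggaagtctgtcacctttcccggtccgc
The Srebf2 sequence lies at chr15:81977449-81977695 (plus strand), Insig1 at chr5:28397702-28397951 (plus), Idi1 at chr13:8884602-8884851 (plus), Hsd17b7 at chr1:171899373-171899586 (minus), Abca1 at chr4:53172768-53173017 (minus) and Nr1h2 at chr7:51809336-51809585 (minus). The Hmgcs1 sequence matched bases 132437 to 132686 of an unplaced contig of NCBIM37 on its minus strand. In these 6 placed promoters the RefSeq start lay inside an accessible region at both stages.

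HMG-CoA synthase, encoded by Hmgcs1, makes the precursor of mevalonate, and its promoter is a classical SREBP target. The SRE core in its sequence begins 137 bases before the start, between 2 CCAAT boxes further upstream and 1 nearer the start. The full promoter window matched NCBIM37 at 2 places, both on unplaced contigs, and neither contig holds a region of either list. The 22 chromosome names in the lists do not include these contigs. Hmgcs1 is therefore without an accessibility value here.

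Every one of the 29 placed genes had a promoter-proximal region at both stages, against 60.7% of all protein-coding genes (13578 of 22372). Of the promoter-proximal regions of the listed genes, 35 of 35 at E9.5 overlapped an E10.5 region by at least 1 bp, compared with 88.4% of all promoter-proximal E9.5 regions. In the other direction 35 of 36 at E10.5 overlapped an E9.5 region, and 95.7% of all promoter-proximal regions did so. The exception was a weak second region of Aacs at chr5:125957761-125958580, 1986 bp into the gene in an intron, with a score of 143.94. The best region of each listed promoter was thus present in both lists.

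How strongly a region was called is given by the authors' score, which is -log10 of a MACS p-value, the best among the replicate regions joined in it, multiplied by 10. The score rises with sequencing depth, which is unknown, so each region was ranked by its percentile within its own list. Scores pile up at exactly 3100 (682 regions at E9.5, 355 at E10.5) and few lie above it (161 and 95, up to 3233.06 and 3230.05). From that value upwards the order of regions was taken to carry little information. For the best-scoring promoter-proximal region of each listed gene the median percentile was 92.2 at E9.5 (range 41.3 to 98.8) and 91.0 at E10.5 (range 2.33 to 99.9). Over all 13578 genes with such a region at both stages the medians were 84.5 and 83.2. In the highest 10% of a list stood 16 of the 29 listed genes (55.2%) at either stage, and 33.7% of all genes at E9.5 and 32.8% at E10.5. Between the stages, 17 of the 29 listed genes (58.6%) ranked lower at E10.5, and 58.4% of all genes did. Scores themselves were lower at E10.5 for 25 of the 29 and for 80.2% of all genes, with a median ratio of E10.5 to E9.5 of 0.745, beside 0.719 over all genes. The medians of the classes were 92.7 and 92.5 for the enzymes, 86.7 and 85.0 for sterol sensing, 93.0 and 94.6 for uptake and storage, and 64.1 and 45.6 for efflux.

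**Figure D1:**
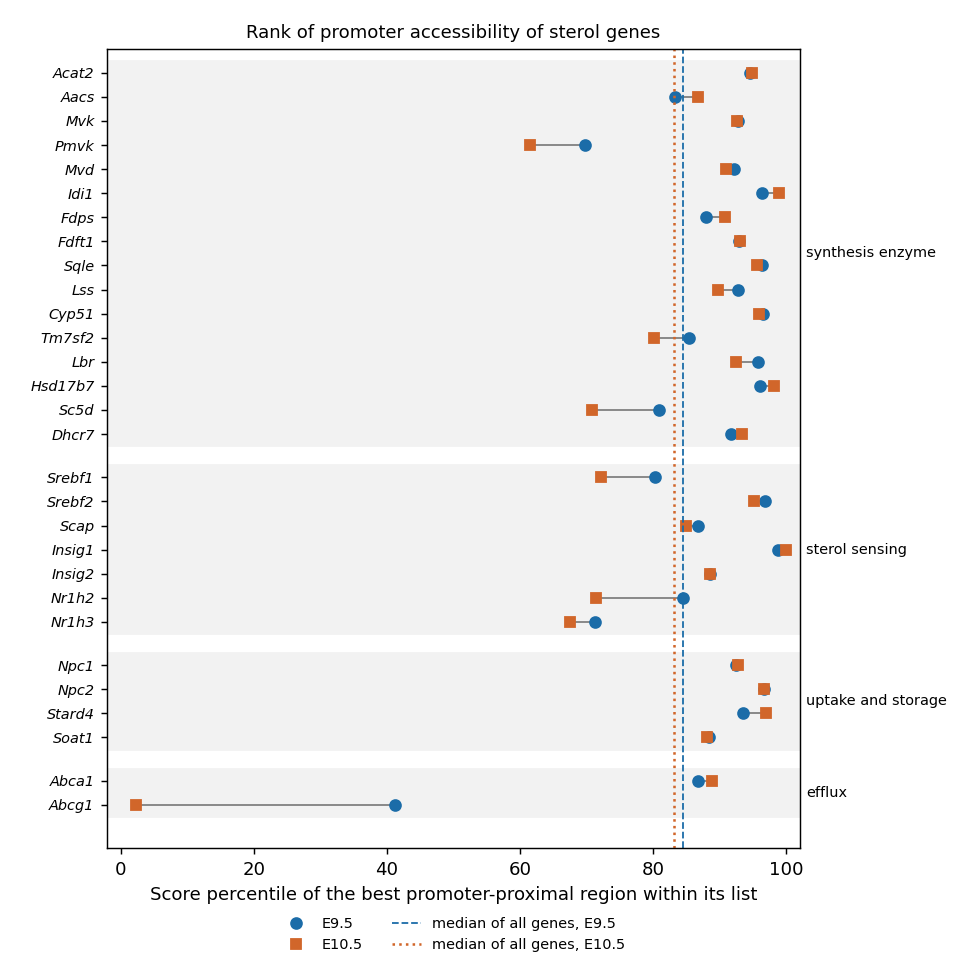
Percentile of the score of the best promoter-proximal region within its own list (horizontal axis, 0 to 100) for the 29 placed genes in 4 classes, with circles for E9.5, squares for E10.5 and vertical lines at the median over all genes (84.5 and 83.2). Most genes lie to the right of both lines with the stages close together, and Abcg1 stands apart at 41.3 and 2.33.

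At the entry to the pathway, the promoter of Acat2, the cytosolic thiolase that joins acetyl-CoA units, scored 2236.18 at E9.5 and 1777.34 in the E10.5 list, at percentiles 94.5 and 94.8. Aacs, which activates acetoacetate in the cytosol, scored 1185.92 and 1037.92, at percentiles 83.3 and 86.7. Mvk, the mevalonate kinase, scored 1967.59 and 1483.07, at percentiles 92.7 and 92.6. Its region also covers a start of Mmab, so that the openness of the one promoter cannot be told from that of the other. Mvd, which decarboxylates mevalonate diphosphate, scored 1904.99 and 1329.76, at percentiles 92.2 and 91.0. The second kinase, Pmvk, had the lowest promoter of the enzymes: 599.00 and 343.37 at E9.5 and E10.5, at percentiles 69.8 and 61.5. Among the genes of the mevalonate steps it was thus the one that stood below the all-gene medians at both stages.

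The isoprenoid and squalene steps had high promoters. Idi1 isomerises isopentenyl diphosphate, and its region was the only one of an enzyme to come near the pile-up of scores at 3100. It scored 2581.82 and 3006.81 at E9.5 and E10.5, at percentiles 96.3 and 98.9, with nearly the same width (1580 and 1581 bp). Fdps, the farnesyl diphosphate synthase, scored 1494.05 and 1316.96, at percentiles 87.9 and 90.8. Fdft1, which condenses farnesyl diphosphate to squalene, scored 1994.39 and 1545.86, at percentiles 92.9 and 93.1. Sqle, the squalene epoxidase and a rate-controlling enzyme of the later pathway, scored 2592.53 and 1920.22, at percentiles 96.4 and 95.6. All 4 of these promoters lay above the all-gene median at both stages.

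From lanosterol onwards the promoters were less alike. Lss, which cyclises squalene epoxide to lanosterol, scored 1973.62 and 1231.73, at percentiles 92.8 and 89.7. Cyp51, the demethylase of lanosterol, scored 2614.17 and 1977.10, at percentiles 96.5 and 95.9, and was the highest enzyme promoter at E9.5. The C14 reductase step is served by 2 genes, of which Lbr, also a protein of the inner nuclear membrane, had the higher promoter. Lbr scored 2456.92 and 1461.09, at percentiles 95.7 and 92.4. Tm7sf2 scored 1317.92 and 738.66, at percentiles 85.4 and 80.2.

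The last steps included the enzyme with the largest difference in rank. Sc5d, the lathosterol oxidase, scored 1056.04 and 489.27 at E9.5 and E10.5, at percentiles 80.9 and 70.8. Hsd17b7, a 3-ketosteroid reductase, differed in the other direction, scoring 2535.57 and 2595.97 at percentiles 96.1 and 98.2. Dhcr7, which makes cholesterol from 7-dehydrocholesterol, has regions at 2 groups of starts. The inner one scored 1848.37 and 1563.77, at percentiles 91.7 and 93.3. The outer one, which also covers a start of Nadsyn1, scored 1611.44 and 1097.54, at percentiles 89.2 and 87.8. Both Dhcr7 promoters were thus open at both stages. In score, 14 of the 16 placed enzymes were lower at E10.5, against the 80.2% of all genes, and the exceptions were Idi1 and Hsd17b7.

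Among the sensors, Insig1 had the most strongly called promoter of all listed genes. Its region chr5:28396443-28399101 scored exactly 3100 at E9.5 and 3164.14 in the later list, so that little can be read from the order of its percentiles, 98.8 and 99.9. Insig2, the other retention protein, scored 1543.74 and 1150.03, at percentiles 88.5 and 88.6. Srebf2, which encodes the SREBP that mainly drives synthesis, scored 2709.96 and 1828.30, at percentiles 96.8 and 95.2. Its E9.5 region was the widest of the listed promoters at 3073 bp, beginning at -1966 bp from the start, and at E10.5 it measured 2058 bp and began at -939 bp. Scap scored 1411.66 and 948.22, at percentiles 86.7 and 85.0.

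Srebf1 makes the SREBP-1a and SREBP-1c transcripts from separate promoters, and 3 regions lie near its starts. The region at the inner start, chr11:60023347-60024682, scored 1023.92 and 517.84, at percentiles 80.3 and 72.2. The region over the outermost start of a protein-coding transcript, chr11:60033387-60034626, scored 806.61 and 284.38, at percentiles 75.6 and 55.7. A region further upstream, chr11:60035877-60037181, scored 962.35 and 379.60, at percentiles 79.1 and 64.2. Its centre lay 2423 bp from that protein-coding start in the E9.5 list and 2476 bp in the E10.5 list. These were the farthest of any region counted as promoter-proximal. The region covers a further RefSeq start at chr11:60036083, which is also the 5′ end of the annotated gene. The nearest region counted as distal was one of Nr1h2, 7263 and 7277 bp from its start at the respective stages. All 3 Srebf1 regions ranked lower at E10.5 and all stood below the all-gene median of best regions, in contrast to the single Srebf2 promoter.

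Both LXR genes ranked lower at E10.5. Nr1h2, the broadly expressed LXR beta, scored 1259.13 and 502.14 at E9.5 and E10.5, at percentiles 84.5 and 71.5. Nr1h3, LXR alpha, scored 644.63 and 428.32, at percentiles 71.3 and 67.5. Of the 7 sensing genes, 5 ranked lower at E10.5, beside the 58.4% of all genes. Insig2 stood at nearly equal percentiles, and Insig1 lay where the order carries little information.

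Genes of intracellular transport and storage, the class labelled uptake and storage, had high promoters in both lists. By their roles they all act inside the cell, so these values do not describe receptors for uptake. Npc1, the membrane protein that exports cholesterol from lysosomes, scored 1935.58 and 1495.41, at percentiles 92.4 and 92.7. Npc2, its soluble partner, scored 2650.10 and 2124.11, at percentile 96.6 in either list, and its region also covers a start of Isca2. Stard4, a cytosolic sterol carrier, scored 2070.34 and 2190.69, at percentiles 93.5 and 96.9. Soat1, which esterifies cholesterol for storage, scored 1539.31 and 1118.32, at percentiles 88.4 and 88.1. Npc1 and Soat1 each had a second, weak region in an intron close to the start, at 126.70 and 102.97 for Npc1 and at 215.85 and 94.55 for Soat1.

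The pair of efflux transporters did not resemble each other. Abca1, which loads cholesterol and phospholipid onto apolipoprotein A-I, scored 1416.68 and 1170.91, at percentiles 86.8 and 88.9. Abcg1, which exports sterol to lipoprotein particles, had the weakest promoter of all listed genes, with 202.20 at E9.5 and 79.23 at E10.5. Its percentiles were 41.3 and 2.33, the latter close to the lowest E10.5 score of 60.44. At a score of at least 100, which corresponds to the stringent p-value of the merging step, Abcg1 would not count as open at E10.5.

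The stage lists outlined nearly the same interval at each promoter. The E9.5 and E10.5 regions of a listed gene had a median of 89.3% of their joint extent in common (range 66.3 to 97.8%), beside 87.3% over all genes. In 17 of the 29 genes the E10.5 region lay wholly inside the E9.5 region, as it did in 56.1% of all genes. The lowest value, 66.3%, belonged to Srebf2, where the centres lay 519 bp apart and the E10.5 region lacked the upstream part. The listed genes had a median width of 1589 bp in the E9.5 list and 1491 bp in the E10.5 list, and all genes 1739 and 1504 bp. The E10.5 region was the narrower one in 23 of the 29 and in 76.1% of all genes.

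**Figure D2:**
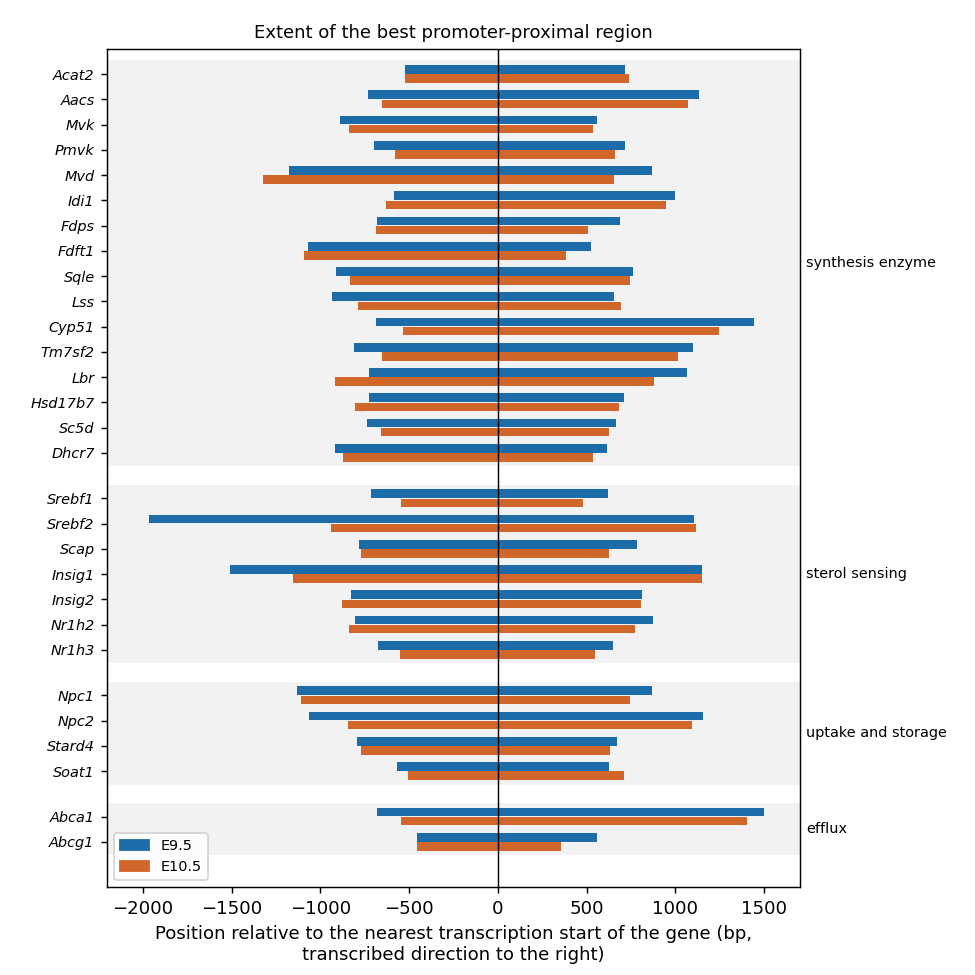
Extent of the best promoter-proximal region of each of the 29 placed genes in bp from the nearest annotated start of the gene (horizontal axis, direction of transcription to the right), with E9.5 above E10.5 for each gene. Each region spans the start, and Srebf2 begins at -1966 bp at E9.5 and at -939 bp at E10.5.

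The 29 genes have 72 annotated protein-coding starts, of which 66 lay inside an accessible region in the E9.5 list and 66 in the E10.5 list. The share over all annotated starts was not computed, so these counts are not shown to be particular to the listed genes. The 6 that lay in no region at either stage were alternative starts of Lss, Srebf1, Scap and, in 3 cases, Insig2. Base composition of the promoters was ordinary: around the centre of the E9.5 region the median GC content was 64.8% for the listed genes and 65.8% for all genes. It ranged from 51.2% at Srebf2 to 79.1% at Scap. The ratio of observed to expected CpG had a median of 0.799, against 0.815 over all genes.

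Beyond the promoters the lists differed more. Of all regions of the listed genes, 54 of 69 at E9.5 (78.3%, 95% Wilson interval 67.2 to 86.4%) and 54 of 63 at E10.5 (85.7%, 75 to 92.3%) overlapped the other list, against 70.1% and 65.0% of all regions. These intervals cover counting error only and treat regions as independent, although several regions share a gene. Promoter-proximal regions, which were shared more often, are counted in these shares. At E9.5 they made up 35 of the 69 listed regions, against 15378 of all 42613. At E10.5 they made up 36 of the 63, against 14599 of all 46765. Among distal regions, 19 of 34 at E9.5 (55.9%, 39.5 to 71.1%) and 19 of 27 at E10.5 (70.4%, 51.5 to 84.1%) were shared, and the shares over all distal regions were 59.8% and 51.0%. The background share lay inside the interval of the listed genes at E9.5 and just below it at E10.5. Insig2 alone contributed 10 distal regions at E9.5 and 9 at E10.5. Without it, 47 of 58 regions (81.0%) and 47 of 53 (88.7%) were shared.

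Of the 29 genes, 12 had no distal region at either stage, among them Acat2, Mvd, Idi1, Cyp51, Lbr, Dhcr7 and Stard4. The share of all protein-coding genes without a distal region was not computed, so this count is not shown to be particular to these genes. Enzyme genes had 15 distal regions at E9.5, of which 8 were found only there, and 8 at E10.5, of which 1 was found only there, whereas 40.2% and 49.0% of all distal regions were found in 1 list only. For the sensing genes the corresponding counts were 14 with 5 and 13 with 4. Distal regions were weak in both lists, with a median score of 175.0 in either list, beside 178.0 and 183.0 over all distal regions. Of the 19 distal E9.5 regions with an E10.5 partner, 11 (57.9%) ranked lower at E10.5, and 42.5% of all such pairs did.

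**Figure D3:**
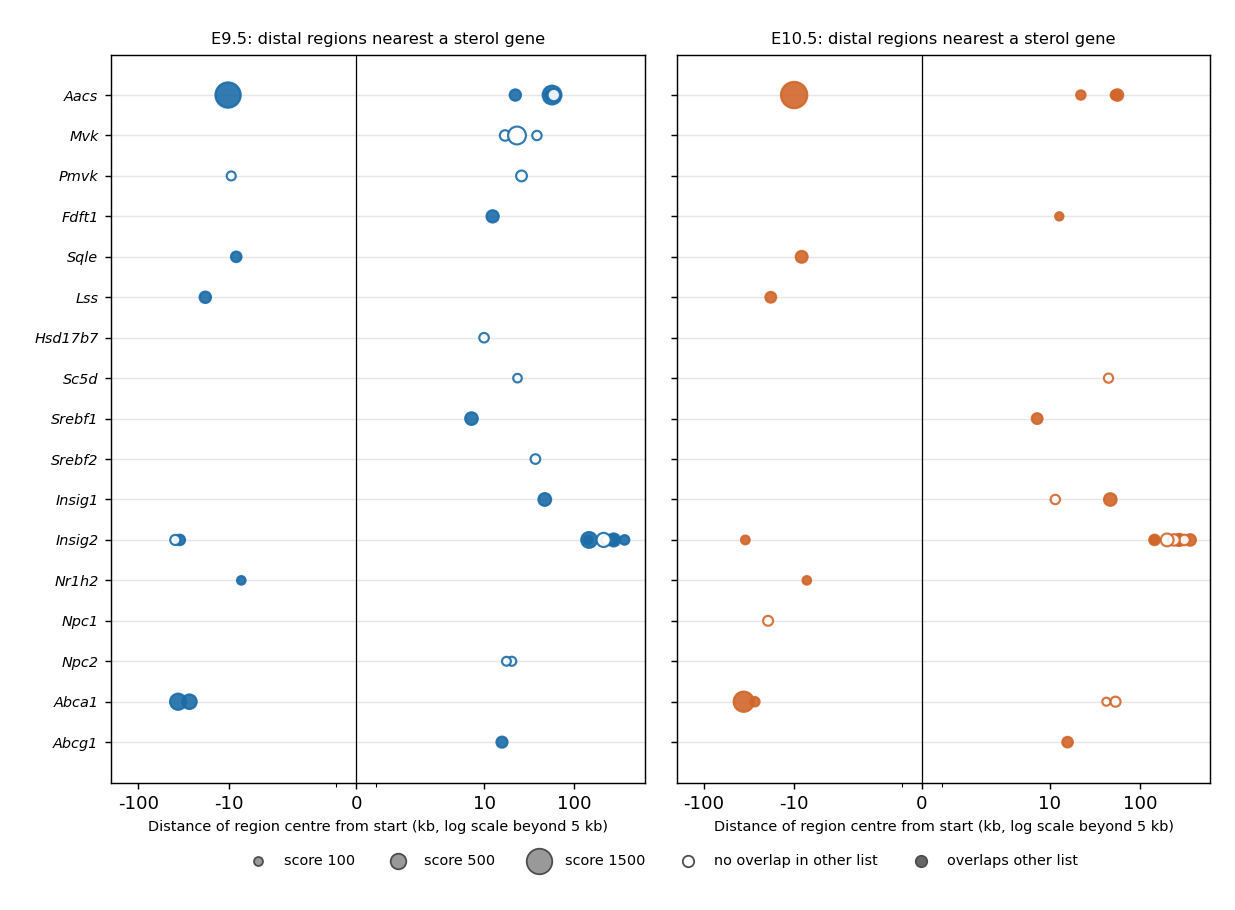
Distance of each distal region from the nearest start of its sterol gene (horizontal axis, kb, logarithmic beyond 5 kb, downstream to the right) at E9.5 and E10.5, with point area rising with score, filled points for regions that overlap the other list and open points for the rest. The largest points belong to the upstream region of Aacs, the 3 open points of Mvk occur at E9.5 only, and Insig2 has points more than 100 kb downstream at both stages.

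Aacs carried the strongest distal region of all listed genes. It lies about 10.2 kb upstream, outside genes, at chr5:125945318-125946710 at E9.5, and scored 1467.34 there and 1599.41 at E10.5. At both stages it therefore scored above the promoter of Aacs (1185.92 and 1037.92), at percentiles 87.5 and 93.5. The shared region with the second-highest score at E9.5 also belonged to Aacs, 56.6 kb downstream at chr5:126011647-126013911, with scores of 770.34 and 232.24 at percentiles 74.7 and 48.6. Next to it, a region at chr5:126014801-126016070 with a score of 277.55 was found at E9.5 only.

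Mvk was the enzyme gene whose surroundings differed most between the lists. It had 3 distal regions at E9.5, all outside genes and all absent from the E10.5 list. The strongest, 23.2 kb downstream at chr5:114916796-114918189, scored 686.35 and was the highest stage-specific region of any listed gene. The others scored 173.51 and 120.44 and lay 17.1 and 38.5 kb downstream. Over the same interval the Mvk promoter stood at percentiles 92.7 and 92.6. Further regions of enzyme genes found at E9.5 only were 2 of Pmvk (190.45 and 103.45), 1 of Hsd17b7 (126.75) and 1 of Sc5d (85.66). At E10.5 the single distal region of this kind belonged to Sc5d (110.95).

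Shared distal regions of the remaining enzyme genes were few and weak. The intronic region of Fdft1, 12.5 kb into the gene, scored 272.07 and 72.03 at E9.5 and E10.5, at percentiles 51.4 and 0.993, while the promoter of the gene stood at 92.9 and 93.1. The region 8.26 kb upstream of Sqle scored 175.62 and 249.33. The region assigned to Lss scored 222.67 and 188.37 and lies inside an intron of its neighbour Mcm3ap.

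Insig2 had the broadest landscape. Its distal regions all lie outside genes and extend to 359 kb from its start, so that nearest start is the only link between them and the gene. The strongest at E9.5, 145 kb downstream at chr1:123073468-123075106, scored 516.93 there and 174.79 at E10.5. The strongest of those found at E9.5 only scored 393.94 (chr1:123008265-123009803, 211 kb) and was the second-highest of that kind. The strongest found at E10.5 only scored 305.73 (chr1:123019472-123020437, 200 kb) and was the highest stage-specific region of a listed gene in that list. Second in that list came another Insig2 region at chr1:122981482-122982259, with a score of 223.05. In all, 4 Insig2 regions were found at E9.5 only and 3 at E10.5 only.

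The other sensors had little distal chromatin. Insig1 had a region 47.0 kb downstream with nearly equal scores (300.55 and 294.13) and a weak one 11.6 kb downstream at E10.5 only (119.97). Srebf2 had an intronic region at E9.5 only (130.46). A region inside Srebf1, 7.27 kb into the gene, scored 292.72 and 188.31, and the region upstream of Nr1h2 scored 83.26 and 82.74.

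The 2 shared distal regions of Abca1 differed in opposite directions, as did those of Aacs and Insig2. The region 36.3 kb upstream, at chr4:53208581-53209600 at E9.5, scored 542.06 and 898.83 at percentiles 68.0 and 84.1, which made it the second-highest shared distal region at E10.5. The region 27.2 kb upstream, at chr4:53199376-53200620, scored 421.70 and 121.88 at percentiles 62.6 and 18.7. Within the gene, 2 intronic regions were found at E10.5 only, with scores of 151.84 and 63.60. Abcg1, by comparison, had 1 intronic region 15.8 kb into the gene with scores of 203.23 and 177.64, which exceeded the scores of its own promoter at both stages. The remaining stage-specific regions were 2 of Npc2 at E9.5 (104.77 and 97.34) and 1 of Npc1 at E10.5 (146.77), the last in an intron of Ankrd29.

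RefSeq promoter windows of 300 bases, 250 before and 50 after a start, were found for 24 of the 30 genes (33 windows). Fdps, Fdft1, Sqle, Npc1, Stard4 and Abcg1 were not among them. Of these windows, 32 matched NCBIM37 once, and the start of 30 lay in an accessible region in the E9.5 list and of 30 in the E10.5 list. Each motif was searched on both strands. The SRE core TCACNCCA occurred in 2 windows (6.1%), those of Hmgcs1 and Srebf2, and in 4.4% of all 32851 windows. In Srebf2 it begins 162 bases before the start, with the letters TCACCCCA as in Hmgcs1, and is followed by a CCAAT box on the opposite strand. A wider SRE consensus matched 3 windows, of Srebf1 and Nr1h3 (9.1% against 8.6% of all windows). The windows of Nr1h3 overlap, so that its match was counted in both. Other forms of the SRE were not searched, so a window without a match is not shown to lack one.

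The commonest elements were those of the cofactors, whose shorter words were also commoner than the SRE core over all windows. CCAAT was present in 19 of the 33 windows (57.6%), covering 18 of the 24 genes, and in 37.4% of all windows. Pmvk and Insig2 are among these genes only through a window whose start lay in no accessible region at either stage. Hmgcs1, also among them, has no accessibility value. GGGCGG, to which Sp factors bind, was present in 24 windows (72.7%) of 20 genes, and in 35.7% of all. The E-box CACGTG was present in 7 windows (21.2%) of 6 genes, Hsd17b7, Sc5d, Dhcr7, Scap, Insig1 and Abca1, and in 7.2% of all. The windows of Scap overlap, so that its E-box and a GGGCGG were counted in both. These shares are descriptions of a list that was chosen by name, and windows of 1 gene are not independent. The start of 30 of the 33 listed windows lay in an accessible region in either list. The windows over all genes were not selected for accessibility. Open promoters of other genes were not searched as a separate set, so the higher shares are not shown to be particular to sterol genes.

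In the printed sequences, the E-box of Insig1 begins 101 bases before the start and its CCAAT box, on the opposite strand, 216 bases before it. Idi1 has 2 CCAAT boxes on the opposite strand within 45 bases of the start. Hsd17b7 has an E-box 143 bases before its start and 3 CCAAT boxes, of which the one 12 bases before the start falls beyond the stretch printed. Abca1 has an E-box 147 bases before its start. Of the elements that SMAD proteins can bind, GGCGCC was found in 6 windows of 5 genes (18.2%, against 11.9% of all windows). The overlapping windows of Nr1h3 hold the same GGCGCC, which was counted in both. Here too the windows over all genes were not selected for accessibility. The palindrome GTCTAGAC was found in 0 windows, beside 0.213% of all. LXR sites were searched only as an exact direct repeat of AGGTCA with a spacing of 4 bases. This was found in 0 windows of the listed genes and in 0.015% of all. Repeats that depart from these letters were not searched, so the 0 does not show that a promoter lacks an LXR site.

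**Figure D4:**
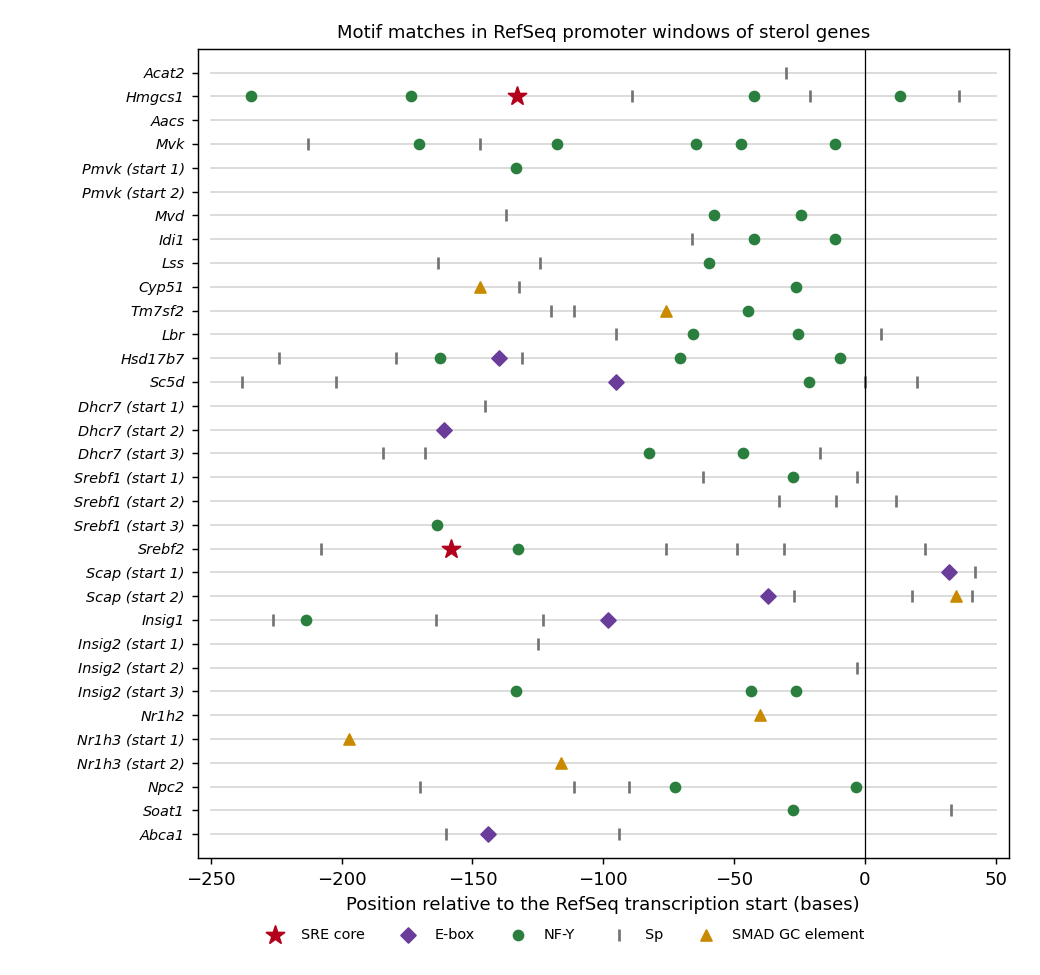
Positions of motif matches in the 33 RefSeq promoter windows of 24 sterol genes, in bases from the RefSeq start (horizontal axis, -250 to 50), with 1 row per start and a symbol for each motif. The exact word of the SRE core (stars) appears in Hmgcs1 and Srebf2 only, whereas CCAAT (circles) recurs across 18 genes. In Pmvk and Insig2 it appears only at a start outside the accessible regions. Other forms of the SRE are not drawn.

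A further 11 genes of the pathway were counted as a group. All 11 had a promoter-proximal region at both stages, against 60.7% of all protein-coding genes. Their median percentiles were 85.8 and 86.4, nearer to the all-gene medians of 84.5 and 83.2 than to the 92.2 and 91.0 of the listed genes. The sterol methyl oxidase gene Msmo1 (listed as Sc4mol) scored 2496.57 and 2553.68. Ggps1, which draws farnesyl diphosphate towards protein prenylation, scored 3121.21 at E9.5 and exactly 3100 in the later list. Mbtps2, the second protease that releases SREBP, stood at percentiles 67.6 and 85.1, and Vldlr, a lipoprotein receptor, at 88.9 and 71.9.

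The tissue labels were checked against promoters of marker genes. The forelimb genes Tbx5, Prrx1, Hand2, Msx1 and Lhx2 had a promoter-proximal region at both stages. Prrx1, Hand2, Msx1 and Lhx2 stood at percentiles from 77.7 to 91.3 at E9.5 and from 84.1 to 96.2 in the later list. Tbx5, which marks forelimb identity, had weak regions, with scores of 89.91 and 74.17 at percentiles 4.11 and 1.36, below every trunk gene. A promoter-proximal region was also found at both stages for all 4 trunk genes (Meox1, Pax1, Foxa2, Myf5), with percentiles from 35.3 to 71.0 at E9.5 and from 12.1 to 78.0 at E10.5. Of the hindlimb genes, Tbx4 had one at both stages and Pitx1 at E9.5 only. Of the genes of the apical ectodermal ridge, Fgf8 had one at E9.5 only and Trp63 at neither stage. The part of trunk cells in the E9.5 values of the sterol genes was not tested, and fewer cells with an open promoter cannot be told from weaker opening in each cell.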

How the data were processed

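ATAC-seq regions were analysed for forelimb buds at E9.5 and E10.5, with 2 replicates per stage. The authors aligned reads to mm9 with Bowtie 1.1.0, kept uniquely mapped reads, called regions with MACS 1.4 without a control and merged replicates with MSPC (stringent p-value 1e-10, weak p-value 1e-06). Scores are the authors' own deposited values, 10 times the negative log10 of a p-value, and is not normalised for depth. Read totals are not given in the sources used here. Distances were taken from the centre of a region to starts of protein-coding transcripts (GENCODE vM1, NCBIM37). Percentiles are ranks within a list. Overlap was at least 1 bp. All 30 listed genes were named, and distal regions were given in full for those with the highest scores. Other regions were named after their values were seen. Members, classes, motifs and comparison genes were chosen with earlier results of these data known, and 1 planned comparison gene is not reported here. The scripts ran under Python 3.11.15, pandas 2.3.3 and pysam 0.24.0. Only the steps that find the nearest start and the overlap of regions were tested on simulated data.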

Additional observations from a re-analysis of the deposited data

How the results depend on the processing

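Of 28 alternatives to the counts and medians of the listed genes, 27 gave a value within the range set for an unaltered result. They changed the promoter distance to 1 kb or 5 kb, measured distance from the edge of a region, used starts of all transcripts, raised the minimum score to 100, kept the higher-scoring 50% of each list, asked for a reciprocal overlap of 50% or left out regions beyond 100 kb. With the higher-scoring 50% of each list, the share of E10.5 regions that overlapped the E9.5 list went from 85.7% to 94.6%, outside its interval. The cause was not tested, although this setting removes weak, mostly distal regions by construction. The number of genes open at both stages was 28 instead of 29 with that setting and with the minimum score of 100. The range was the interval of a share or median, and 1.5-fold for the number of genes. None of these results has a direction, so a reversal could not occur. Percentiles were kept from the full lists, which left the medians little room to move. No paired analysis was possible because the replicates of a stage were merged and carry no values of their own, and for the same reason leaving out a replicate was not run. Unknown depth limits every comparison of scores between the stages.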
